A study of Arabidopsis with 12 samples.

Results

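The ZAT and AZF genes of Arabidopsis encode C2H2 zinc finger transcription factors, and 10 of them are described here: ZAT5, ZAT6, ZAT7, ZAT8, ZAT10, ZAT11, ZAT12, AZF1, AZF2 and AZF3. They were chosen by locus, and all 10 were found among the 27655 genes of the transcript table. The RNA-seq libraries came from seedlings that the titles and growth protocol put at 7 d of age and the series' design text at 1 d less, with the tissue labelled leaf. Seedlings were grown on medium in continuous light and then treated in 4 groups of 3 libraries. In flu toc33 light, the double mutant flu/toc33-1 had 4 h of dark and then 1 h of light. In flu toc33 dark, seedlings labelled as the same double mutant had the 4 h of dark alone. In flu light and flu dark, the single mutant flu had these same treatments. All 4 groups thus carry flu, and no wild type was analysed here. The lit groups were sampled 1 h later than the dark groups, so light and elapsed time cannot be told apart.

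FLU is a brake on tetrapyrrole synthesis. Without it, protochlorophyllide builds up in the dark, and the return of light makes singlet oxygen inside the chloroplast, a signal that changes nuclear transcription. TOC33 is a GTPase that receives precursor proteins at the chloroplast surface for import, and the series' title names it as a relay of that signal. ZAT and AZF proteins carry a pair of fingers with a plant-specific QALGGH motif and, near the carboxyl end, an EAR repression motif that recruits corepressors. Their genes are known for fast, transient induction by reactive oxygen species, high light, cold, salt, wounding and abscisic acid, and several of them are used as markers of oxidative stress.

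The unit is TPM, a share of all transcripts in a library scaled to 1000000, which is corrected for transcript length and can be compared between genes within a library. Every library sums to the same total, so read depth is unknown here, and neither counting errors nor detection limits are given. Differences are of log2(TPM + 1), a scale that understates the change of genes at low levels. A gene is called at an adjusted p under 0.05 (limma, Benjamini-Hochberg adjustment over the 19667 genes that reached 1 TPM in 3 libraries or more). Replicate pairs within a group differed by a median of 0.0653 to 0.0858 in log2, except for the 2 pairs with flu dark replicate 3, at 0.152 and 0.155. Nothing in the labels says that replicates were grown separately, and the p-values therefore reflect the spread among these libraries alone, which may be technical. TOC33 (AT1G02280) averaged 3.97 ± 0.271 TPM in flu toc33 light and 48.7 ± 0.631 TPM in flu toc33 dark, against 172 ± 2.71 TPM in flu light and 203 ± 11.1 TPM in flu dark (SD, n = 3 each). Every flu toc33 library lay below every flu library, but the targeted gene also differed between the groups labelled flu toc33, by a log2 of -3.32 ± 0.0484 light against dark (limma, adjusted p = 9.08e-16), beside -0.24 ± 0.0484 in flu (limma, adjusted p = 6.63e-04). The light response in flu toc33 and the interaction compare groups that carry this gap, and its part in them was not tested. The 5 leaf marker genes summed to between 23435 and 26021 TPM in every library. The 5 root markers summed to 1335 to 1365 TPM in flu toc33 light, 1522 to 1568 TPM in dark flu toc33, 794 to 839 TPM in flu light and 1148 to 1347 TPM in flu dark. None of the root markers was at 0 in a whole group, and PYK10 made up nearly all of their sum, with group means of 1347 TPM in flu toc33 light, 1543 TPM in flu toc33 dark, 816 TPM in flu light and 1263 TPM in flu dark. The 2 epidermis markers summed to 440.0 to 461 TPM in flu toc33 light, 297 to 301 TPM in dark flu toc33, 241 to 244 TPM in flu light and 211 to 239.6 TPM in flu dark. The 2 seed markers summed to 80.2 to 86.1 TPM in flu toc33 light, 109.7 to 406 TPM in dark flu toc33, 17.3 to 22.1 TPM in flu light and 62.4 to 68.2 TPM in flu dark. The guard cell pair summed to 20.6 to 25.4 TPM and the vascular pair to 68.1 to 109.6 TPM over all libraries. The part of these tissues in the values below was not tested. In whole tissue, fewer cells that express a gene and less RNA per cell cannot be told apart.

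Most of the family rose steeply in flu within the hour of light, and far less in flu toc33. In flu, 8 of the 10 genes rose, each more than 2-fold, 1 fell and 1 was not called, at a background of 28.2% of all genes tested called higher and 33.4% called lower. Calls of at least 2-fold made up 9.15% of all genes tested upward in flu. In flu toc33 all 10 were called higher, 4 of them at least 2-fold, at a background of 40.4% called higher and 30.6% lower, or 9.14% higher with the 2-fold limit. By mean TPM, without a pseudocount, ZAT7, ZAT8 and AZF2 also passed 2-fold in flu toc33, at 3.57-fold, 2.54-fold and 2.11-fold. The median log2 change of the 10 genes was 0.93 in flu toc33 and 3.32 in flu, beside 0.0718 and -0.0375 for all genes tested. The difference of the light response, flu toc33 minus flu, was called negative for 8 genes, each by at least 2-fold, and positive for ZAT5, while AZF3 was not called. The background was 25.1% called lower, 7.35% with the 2-fold limit, and 31.6% called higher. All 10 passed the filter on low values, but ZAT7 and ZAT11 did so through the lit groups alone, and AZF1 reached 1 TPM in all libraries of only 3 groups. These counts therefore describe the genes and lend no weight to a direction.

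**Figure D1:**
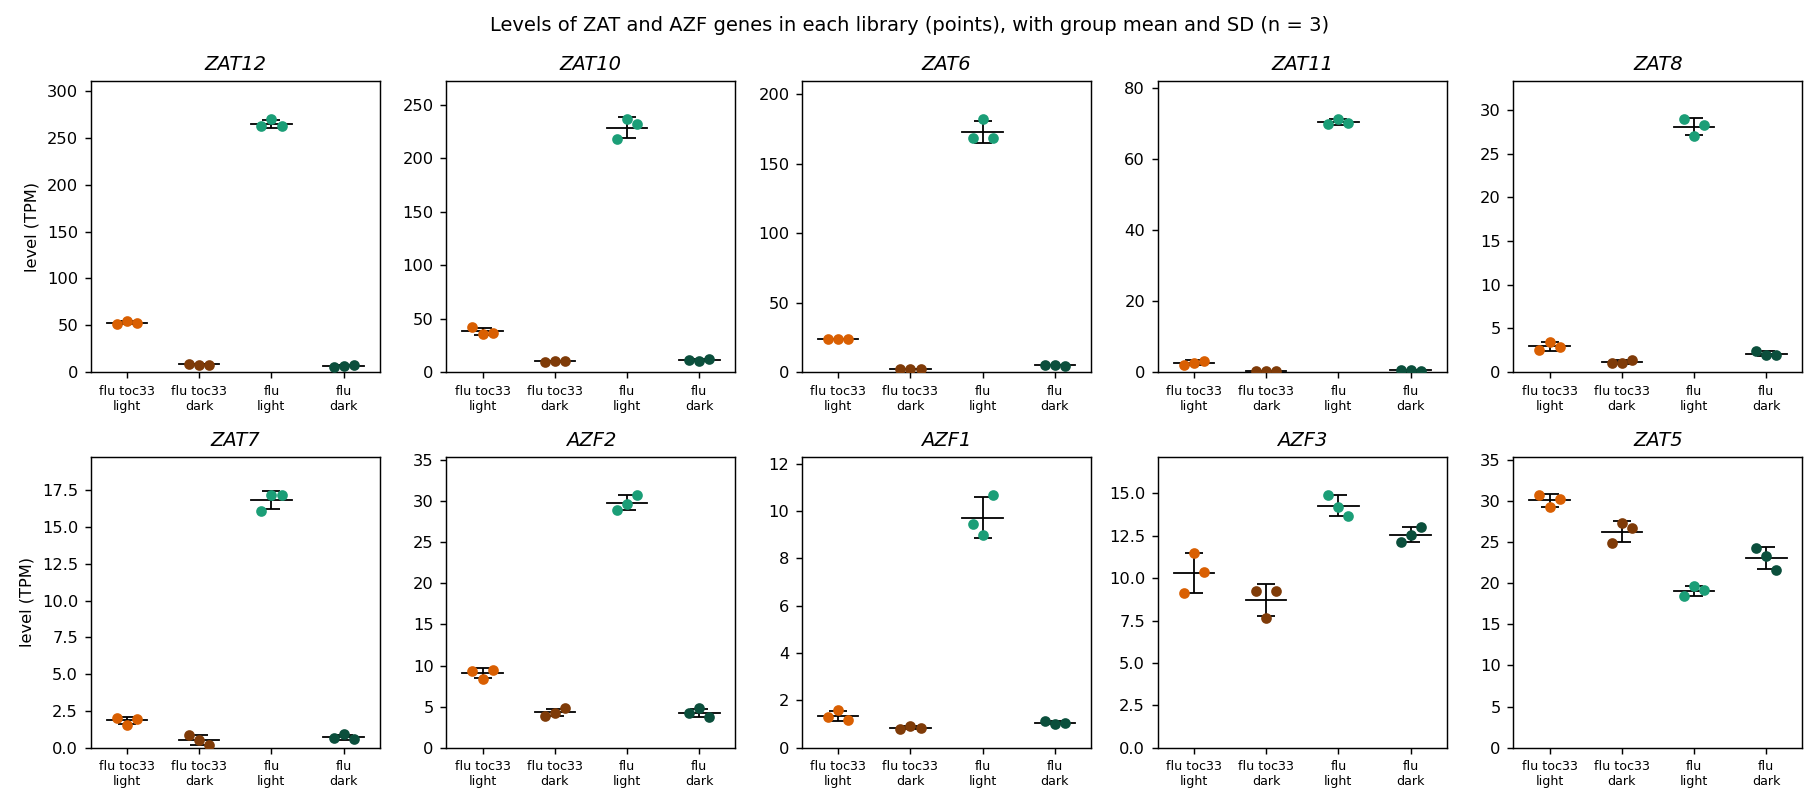
Level in TPM (vertical axes, each from 0) of the 10 genes in each of the 12 libraries. Points are libraries, and bars are the group mean with its SD (n = 3). In 8 panels the flu light points stand far above all others, while ZAT5 runs the other way and AZF3 spans only 7.66 to 14.9 TPM.

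ZAT12 (AT5G59820), also named RHL41 for its response to high light and known as a factor of the oxidative stress response, had the highest lit level of the family in both genotypes. It stood at 51.4, 54.6 and 52.6 TPM in flu toc33 light, against 8.95, 7.66 and 7.73 TPM in flu toc33 dark. In flu it stood at 263, 270.5 and 262 TPM in the light, against 5.91, 6.54 and 7.02 TPM in the dark. The 4 groups did not overlap, and flu toc33 was the higher genotype in the dark and the lower in the light. The log2 light response was 2.57 ± 0.0637 (SE) in flu toc33 and 5.16 ± 0.0637 in flu, and the interaction of genotype and light was -2.59 ± 0.0901 (limma, adjusted p = 4.06e-11). In flu this was the 35th largest rise of all genes tested, and in flu toc33 the 248th.

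ZAT10 (AT1G27730), the salt tolerance zinc finger STZ, is a repressor that MPK3 and MPK6 are known to phosphorylate. Its levels were 42.1, 35.9 and 36.6 TPM in flu toc33 light, against 9.64, 10.4 and 10.6 TPM in flu toc33 dark. They were 218, 237 and 232 TPM in flu light, against 11.4, 9.92 and 11.9 TPM in flu dark. The dark groups overlapped, with a log2 difference of -0.10 ± 0.0732 between genotypes (limma, adjusted p = 0.297), while the lit groups lay far apart. The log2 light response was 1.80 ± 0.0732 in flu toc33 and 4.25 ± 0.0732 in flu, with an interaction of -2.45 ± 0.104 (limma, adjusted p = 2.63e-10).

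ZAT6 (AT5G04340) is known for roles in phosphate supply and cadmium tolerance, and its lit level in flu came after those of ZAT12 and ZAT10. It stood at 23.7, 23.99 and 23.5 TPM in flu toc33 light, against 2.23, 2.46 and 2.28 TPM in flu toc33 dark. Its flu libraries stood at 169, 182 and 168 TPM in the light, against 5.02, 5.19 and 4.70 TPM in the dark. No groups overlapped, and the double mutant was the lower genotype in both treatments. Its log2 difference in the dark was -0.84 ± 0.0549 (limma, adjusted p = 5.72e-08), the 508th lowest of all genes tested and, with the pseudocount of 1 TPM, the largest of the family. By mean TPM it was 2.14-fold lower, against 2.92-fold for ZAT11. Within flu toc33, ZAT6 had the largest rise of the family with the pseudocount of 1 TPM, at a log2 of 2.90 ± 0.0549. By mean TPM it rose 10.2-fold there, against 14.5-fold for ZAT11. In flu ZAT6 rose by a log2 of 4.86 ± 0.0549, and its interaction was -1.97 ± 0.0777 (limma, adjusted p = 1.41e-10).

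ZAT11 (AT2G37430), which is linked to cell death under oxidative stress, had the largest rise of the family in flu and the largest difference between genotypes. It stood at 1.97, 2.67 and 3.24 TPM in flu toc33 light, against 0.155, 0.157 and 0.233 TPM in flu toc33 dark. In flu it stood at 69.8, 71.2 and 70.1 TPM in the light, against 0.612, 0.611 and 0.366 TPM in the dark. Lit double mutants thus held 3.73% of the lit flu level, the lowest share of the 10 genes. The log2 light response was 1.60 ± 0.115 in flu toc33 and 5.55 ± 0.115 in flu, where it was the 18th largest rise of all genes tested. The interaction of -3.95 ± 0.163 (limma, adjusted p = 2.11e-10) was the 18th lowest. Both dark groups lay below the pseudocount of 1 TPM, so these folds depend on it.

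ZAT7 (AT3G46090), known from work on salt tolerance, and ZAT8 (AT3G46080) lie beside each other on chromosome 3, with 1 other annotated locus between them that was listed at 0 in every group. ZAT8 stood at 2.47, 3.49 and 2.83 TPM in flu toc33 light, against 1.01, 1.03 and 1.42 TPM in flu toc33 dark. Its flu values were 29.0, 27.0 and 28.3 TPM in the light, against 2.40, 1.90 and 1.91 TPM in the dark. ZAT8 was higher than ZAT7 in the mean of every group, and no library of the double mutant passed 3.49 TPM for either. ZAT7 stood at 2.01, 1.57 and 1.97 TPM in flu toc33 light, against 0.846, 0.4998 and 0.212 TPM in flu toc33 dark. Its flu values were 16.1, 17.2 and 17.2 TPM in the light, against 0.629, 0.906 and 0.6004 TPM in the dark. The neighbours had like light responses, of a log2 of 0.86 ± 0.109 for ZAT8 and 0.93 ± 0.135 for ZAT7 in flu toc33, and 3.25 ± 0.109 and 3.39 ± 0.135 in flu. Their interactions were -2.38 ± 0.154 for ZAT8 (limma, adjusted p = 1.86e-08) and -2.46 ± 0.192 for ZAT7 (limma, adjusted p = 1.25e-07). Reads that fit both of these related copies would be shared out by the abundance estimate, so how exactly they split between the pair is uncertain.

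AZF1 (AT5G67450) and AZF2 (AT3G19580) are repressors known to be induced by abscisic acid and salt and to act on auxin-induced SAUR genes. AZF2 stood at 9.30, 8.42 and 9.52 TPM in flu toc33 light, against 3.92, 4.19 and 4.78 TPM in flu toc33 dark. Its flu values were 29.0, 29.7 and 30.8 TPM in the light, against 4.17, 4.78 and 3.73 TPM in the dark. The dark groups overlapped, and lit double mutants kept 30.4% of the lit flu level, the highest share among the 8 genes that rose in flu. AZF2 has 2 transcripts in the table, and the second did not pass 0.215 TPM in any library. AZF1 was the least abundant gene of the family in both lit groups, at 1.29, 1.59 and 1.16 TPM in flu toc33 light, against 0.805, 0.904 and 0.851 TPM in flu toc33 dark. Its flu values were 9.47, 9.0008 and 10.7 TPM in the light, against 1.11, 1.02 and 1.06 TPM in the dark. In log2, AZF2 rose by 0.93 ± 0.0852 in flu toc33 and 2.57 ± 0.0852 in flu, and AZF1 by 0.34 ± 0.0935 and 2.37 ± 0.0935. The interactions were -1.64 ± 0.12 for AZF2 (limma, adjusted p = 7.11e-08) and -2.04 ± 0.132 for AZF1 (limma, adjusted p = 1.90e-08). The AZF1 rise in flu toc33 was not called under quantile normalization, with a log2 of 0.19 (limma, adjusted p = 0.0714).

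AZF3 (AT5G43170) was set apart by a small light response. It stood at 9.13, 11.5 and 10.3 TPM in flu toc33 light, against 9.27, 7.66 and 9.23 TPM in flu toc33 dark. Its flu values were 14.9, 14.2 and 13.7 TPM in the light, against 12.1, 12.6 and 13.0 TPM in the dark. The groups were ordered by genotype and not by light, with every flu library above every flu toc33 library. For AZF3, flu toc33 minus flu was a log2 of -0.44 ± 0.0853 in the light (limma, adjusted p = 4.62e-04) and -0.48 ± 0.0853 in the dark (limma, adjusted p = 4.60e-04). The difference of its light response between genotypes was 0.0478 ± 0.121 (limma, adjusted p = 0.755). Its light response was 0.17 ± 0.0853 in flu (limma, adjusted p = 0.0983), where the groups did not overlap, and 0.22 ± 0.0853 in flu toc33 (limma, adjusted p = 0.034), where they did. That call in flu toc33 was lost under quantile normalization, median-ratio scaling, the replicate block and the fit of the compared groups alone, and without flu toc33 light replicate 2 or 3 or flu toc33 dark replicate 2, with a log2 of 0.0987 to 0.22 (limma, adjusted p from 0.0525 to 0.316).

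ZAT5 (AT2G28200) ran against the rest of the family. It stood at 30.7, 29.2 and 30.2 TPM in flu toc33 light, against 24.8, 27.2 and 26.7 TPM in flu toc33 dark. Its flu values were 18.4, 19.6 and 19.1 TPM in the light, against 24.2, 23.3 and 21.6 TPM in the dark. None of the 4 groups overlapped, and lit flu, the highest group of every other gene here, was its lowest. ZAT5 fell in flu, with a log2 of -0.26 ± 0.0545 (limma, adjusted p = 9.23e-04) and rose in flu toc33 by 0.19 ± 0.0545 (limma, adjusted p = 0.0068), with an interaction of 0.45 ± 0.0771 (limma, adjusted p = 2.23e-04). In size these changes were small beside the others, at 1.145-fold higher in flu toc33 and 1.21-fold lower in flu by the mean TPM.

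**Figure D2:**
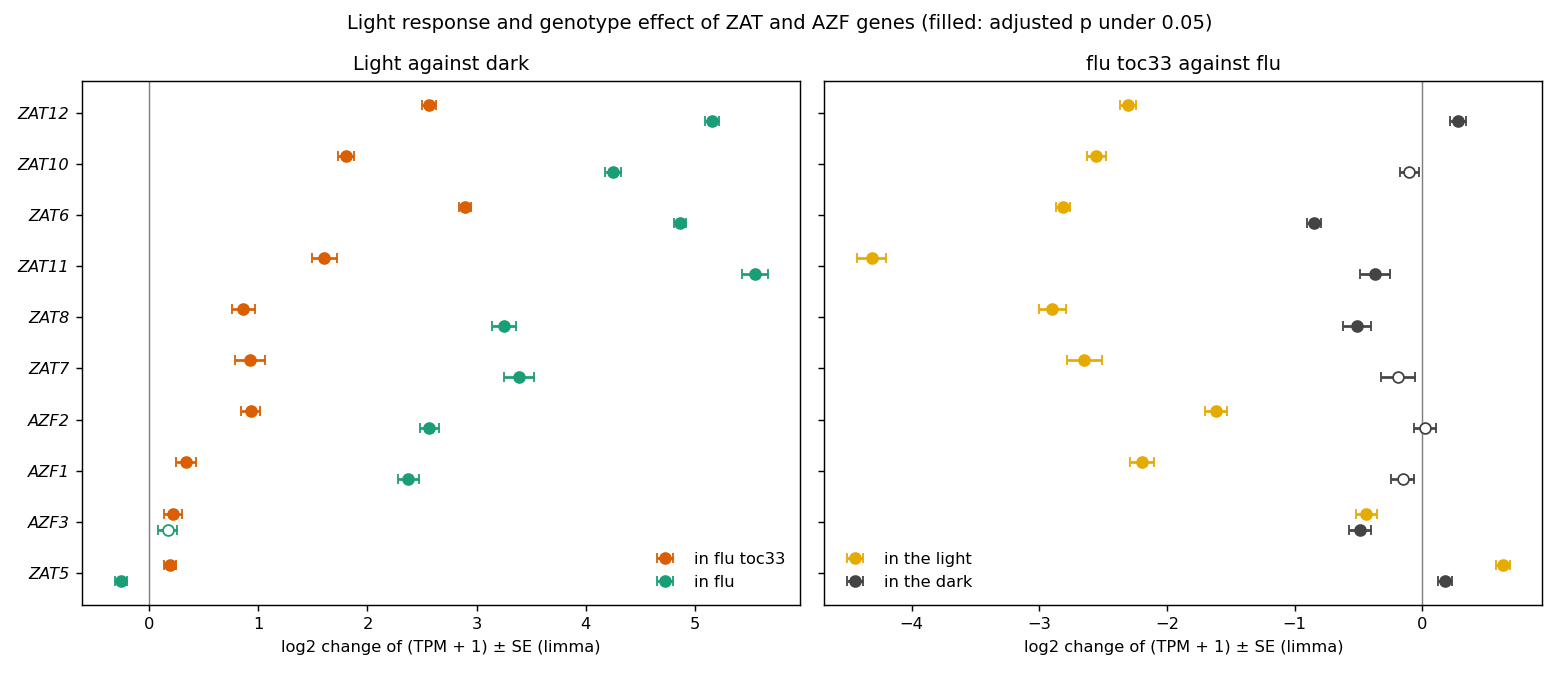
Log2 change of (TPM + 1) with its SE from limma (horizontal axes) for each gene, with filled points at an adjusted p under 0.05. The left panel gives light against dark in flu toc33 and in flu, and the right panel flu toc33 against flu in the light and in the dark. The points of the 2 genotypes lie far apart for 8 genes on the left and close for AZF3 and ZAT5, and the dark points on the right lie between -0.84 and 0.28.

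Set against flu directly, the double mutant had lower lit levels for 9 of the 10 genes, 8 of them at least 2-fold, and a higher one for ZAT5. Of all genes tested, 27.9% were called lower in this comparison, 7.78% at least 2-fold, and 39% higher. This comparison shares its libraries with the light responses above and is no separate support for them. The lit levels of the double mutant were 3.73% of those of flu for ZAT11, 10.4% for ZAT8, 10.997% for ZAT7, 13.7% for ZAT6, 13.8% for AZF1, 16.7% for ZAT10, 19.9% for ZAT12 and 30.4% for AZF2. The log2 differences ran from -4.31 ± 0.115 for ZAT11 to -1.61 ± 0.0852 for AZF2 among these 8 (limma, adjusted p from 5.57e-14 to 1.13e-09), and ZAT5 differed by 0.63 ± 0.0545 (limma, adjusted p = 2.02e-07). The number of TPM gained in the light was also smaller: ZAT12 gained 44.8 TPM in flu toc33 and 259 TPM in flu, ZAT10 gained 27.96 TPM in flu toc33 and 218 TPM in flu, and ZAT6 gained 21.4 TPM in flu toc33 and 168 TPM in flu.

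After 4 h of dark the genotypes differed less. ZAT6, ZAT8, ZAT11 and AZF3 were lower in flu toc33, ZAT5 and ZAT12 were higher, and ZAT7, ZAT10, AZF1 and AZF2 were not called. That is 4 of 10 lower and 2 of 10 higher at a background of 20.5% and 20.9%. With the pseudocount of 1 TPM none of the 10 was called at 2-fold or more, where the background was 1.77% lower and 0.768% higher. By mean TPM, ZAT6 was 2.14-fold and ZAT11 2.92-fold lower. ZAT8 differed by a log2 of -0.51 ± 0.109 (limma, adjusted p = 0.00197), with groups that did not overlap. ZAT12 was higher by 0.28 ± 0.0637 (limma, adjusted p = 0.00291), in the direction opposite to its difference in the light. The ZAT12 call and that of ZAT5, at 0.18 ± 0.0545 (limma, adjusted p = 0.0165), were lost when the dark groups were fitted alone (adjusted p = 0.051 and 0.0648), and that of ZAT5 also without flu toc33 dark replicate 2 or 3 (adjusted p = 0.0709 and 0.0572). ZAT11, at -0.37 ± 0.115 (limma, adjusted p = 0.0202), lost its call with a pseudocount of 5 TPM, under quantile normalization and without any of 4 dark libraries, flu toc33 replicates 1 and 2 and flu replicates 1 and 2 (limma, adjusted p from 0.0509 to 0.188). Without flu toc33 dark replicate 1, ZAT7 was called lower (limma, adjusted p = 0.04996).

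The make-up of the family changed with the treatment. The 10 genes summed to 173 ± 1.13 TPM in flu toc33 light and 62.7 ± 1.26 TPM in flu toc33 dark, against 855 ± 20.4 TPM in flu light and 66.7 ± 0.873 TPM in flu dark (SD, n = 3 each). In the dark, ZAT5 was the most abundant in both genotypes, with 41.9% ± 1.76 of the sum in flu toc33 and 34.5% ± 1.59 in flu. In the light, ZAT12 led in both, with 30.6% ± 1.02 in flu toc33 and 31.0% ± 0.39 in flu, followed by ZAT10 with 22.1% ± 1.84 and 26.7% ± 0.619. Below these leaders the order differed: ZAT5 ranked 3 in flu toc33 light, with 17.4% ± 0.414 of the sum, and 7 in flu light, with 2.23% ± 0.022. ZAT11 took 1.52% ± 0.376 in flu toc33 light and 8.23% ± 0.114 in flu light, where it ranked 4.

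**Figure D3:**
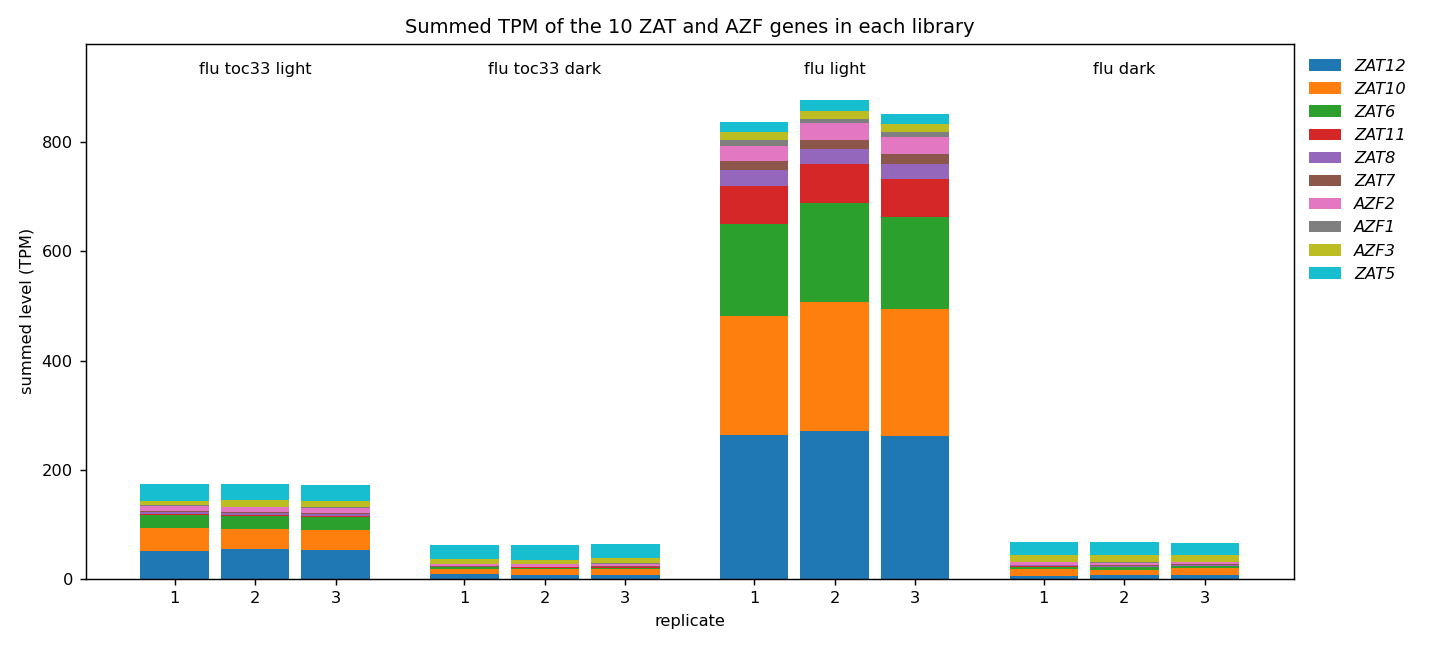
Summed level of the 10 genes in TPM (vertical axis, from 0) in each library, stacked by gene, with the 3 replicates of each group side by side. The flu light bars reach 837 to 877 TPM and the flu toc33 light bars 172 to 174 TPM, while dark bars of both genotypes stay between 61.7 and 67.6 TPM.

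Of 20 other C2H2 zinc finger genes on a list compiled by locus, 15 were expressed too little to be tested. The other 5 passed the filter, and their highest group mean was 3.32 TPM, that of AT5G03510 in flu toc33 light. In the light response 1 of the 5 was called higher in flu toc33 (AT5G03510, log2 0.41 ± 0.113, limma, adjusted p = 0.00487) and 1 in flu (AT3G60580, log2 0.30 ± 0.0951, limma, adjusted p = 0.0134), with none called lower. Of all genes tested, 40.4% were called higher and 30.6% lower in flu toc33, and 28.2% and 33.4% in flu. AT3G60580 was at 2.004 ± 0.132 TPM in flu light, against 1.44 ± 0.27 TPM in flu dark. The flu count of higher calls was 0 without flu dark replicate 1, and that of lower calls was 1 without flu light replicate 1 or 3 or flu dark replicate 1 or 3, while the flu toc33 count of higher calls was 2 without flu toc33 dark replicate 2, flu light replicate 1, or flu dark replicate 2 or 3. Under quantile normalization none was called higher in either genotype, while 1 was called lower in flu toc33 and 2 in flu. Of all 19667 genes, 6954 were then called higher and 7177 lower in flu toc33, and 4691 and 8660 in flu. With no filter on low values, 5 of 17 relatives were called higher in flu and 1 lower. In that setting 6226 of 25021 genes were called higher and 6779 lower. AT3G46070, on the other side of ZAT8 from ZAT7, did not pass 0.763 TPM in any library. AT2G45120 was called in the interaction, at 0.61 ± 0.183 (limma, adjusted p = 0.0116), without a call in either genotype.

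The nearest 2 annotated protein-coding genes on each side of the 10 genes gave 37 others, of which 22 passed the filter. In flu toc33 12 of these were called higher and 7 lower, beside 40.4% and 30.6% of all genes tested, and in flu 4 were called higher and 6 lower, beside 28.2% and 33.4%. At 2-fold or more, 9.14% of all genes tested were called higher in flu toc33 and 9.15% in flu. Of the 22, only AT3G46110, which lies past ZAT7 with HRS1 between, was called higher at 2-fold or more, in either genotype. It was chosen after its values were seen, and it stood at 6.79 TPM in flu toc33 light and 2.02 TPM in flu toc33 dark, against 31.3 TPM in flu light and 2.82 TPM in flu dark, while HRS1 lay between 36.0 and 38.3 TPM in the 4 group means.

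None of the corepressor genes tied to EAR motifs changed by 2-fold in any comparison. Of 15 genes for TOPLESS family proteins, SIN3-like proteins, SAP18, NINJA and the histone deacetylases HDA6 and HDA19, all passed the filter. In flu toc33, 3 rose in the light and 5 fell, beside 40.4% and 30.6% of all genes tested, and in flu, 1 rose and 2 fell, beside 28.2% and 33.4%. The flu count of falls was 8 without flu dark replicate 3, where 7435 of all 19607 genes tested were called lower. It was 1 without flu light replicate 1 or flu dark replicate 1 or 2, and the flu count of rises was 2 without flu dark replicate 1. TPR4, a TOPLESS relative, rose in both, to 37.9 ± 1.87 TPM in flu toc33 light, against 20.5 ± 0.359 TPM in flu toc33 dark, and to 29.0 ± 1.42 TPM in flu light, against 18.4 ± 2.17 TPM in flu dark (limma, adjusted p = 1.19e-07 in flu toc33 and 3.95e-06 in flu). TPL, the founding member TOPLESS, fell in both, to 74.3 ± 3.45 TPM in flu toc33 light, against 116 ± 3.35 TPM in flu toc33 dark, and to 73.1 ± 1.55 TPM in flu light, against 94.0 ± 16.8 TPM in flu dark (limma, adjusted p = 3.72e-05 in flu toc33 and 0.00648 in flu). Among the flu dark libraries TPL stood at 104, 104 and 74.7 TPM, the low value being that of replicate 3. HDA19, the deacetylase most often tied to TOPLESS, lay between 91.3 and 96.2 TPM in the 4 group means and was called in none of the comparisons.

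A list of genes placed upstream of the family held 15 genes, all tested. In flu toc33, 8 rose in the light and 3 fell, beside 40.4% and 30.6% of all genes tested. In flu, 12 rose and none fell, beside 28.2% and 33.4%, with 1 called lower without flu dark replicate 3. MPK6, a MAP kinase, was one of those that fell in flu toc33, at 42.6 ± 2.83 TPM in flu toc33 light and 66.6 ± 1.32 TPM in flu toc33 dark, against 50.6 ± 1.83 TPM in flu light and 54.0 ± 8.1 TPM in flu dark. Its relative MPK4 rose by a log2 of 0.20 ± 0.04 in flu toc33 and 0.21 ± 0.04 in flu. The median log2 light response was 0.19 in flu toc33 and 0.83 in flu. WRKY40, a stress-induced WRKY factor, stood at 15.3 ± 2.29 TPM in flu toc33 light and 8.40 ± 0.321 TPM in flu toc33 dark, against 284 ± 6.6 TPM in flu light and 11.2 ± 0.329 TPM in flu dark. WRKY33, a regulator of camalexin and defence genes, stood at 43.5 ± 1.84 and 15.9 ± 0.589 TPM in the double mutant in the light and dark, against 477 ± 11.3 and 27.9 ± 2.11 TPM in flu. Both rose in both genotypes. MPK3, a MAP kinase of stress signalling, stood at 56.8, 61.6 and 59.2 TPM in flu toc33 light and 52.0, 50.6 and 52.2 TPM in flu toc33 dark, against 419, 407 and 426 TPM in flu light and 64.3, 64.5 and 55.4 TPM in flu dark. Its light response was a log2 of 0.19 ± 0.0537 in flu toc33 and 2.75 ± 0.0537 in flu, so the double mutant barely moved where flu rose steeply. HSFA4A, a heat shock factor linked to reactive oxygen, rose to 9.66 ± 0.326 TPM in flu toc33 light, against 5.70 ± 0.282 TPM in flu toc33 dark, and to 51.2 ± 1.16 TPM in flu light, against 6.76 ± 0.663 TPM in flu dark.

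The kinase genes MKK4 and MKK5, which encode the kinases that activate MPK3 and MPK6, rose in both genotypes. Their log2 light responses were 1.43 ± 0.0987 and 1.09 ± 0.0825 in flu toc33, and 2.32 ± 0.0987 and 1.33 ± 0.0825 in flu. In the interaction 11 of the 15 were called lower and none higher, beside 25.1% and 31.6% of all genes tested, and MKK5 was not called. They were led by WRKY40 at -3.77 ± 0.109, WRKY33 at -2.65 ± 0.0762, MPK3 at -2.55 ± 0.076 and HSFA4A at -2.08 ± 0.0956 (limma, adjusted p from 7.40e-12 to 5.73e-10). CAMTA3, a calmodulin-binding factor of rapid stress responses named here after its values were seen, went opposite ways in the genotypes. It fell to 17.1 ± 0.627 TPM in flu toc33 light, against 27.5 ± 0.389 TPM in flu toc33 dark, and rose to 52.6 ± 0.393 TPM in flu light, against 29.2 ± 2.36 TPM in flu dark, with an interaction of -1.48 ± 0.078 (limma, adjusted p = 2.31e-09). In the dark WRKY33 was already lower in flu toc33, with a log2 of -0.77 ± 0.0539 (limma, adjusted p = 1.12e-07), as were WRKY40 at -0.37 ± 0.0769 (limma, adjusted p = 0.00158) and MPK3 at -0.24 ± 0.0537 (limma, adjusted p = 0.00256). HSFA1B, a heat shock factor, was higher at 0.39 ± 0.105 (limma, adjusted p = 0.00823). Set against flu in the dark, 5 of the 15 were called lower and 5 higher in flu toc33, beside 20.5% and 20.9% of all genes tested. In the light 10 were called lower and 2 higher, beside 27.9% and 39%. The dark counts were 3 lower without flu toc33 dark replicate 1 or flu dark replicate 1, and 3 higher without flu toc33 dark replicate 1 or 2. The 2 higher in the light were MPK4 and HSFA1A, and their count was 1 without any of 6 libraries, flu toc33 light replicates 2 and 3, flu toc33 dark replicates 1 and 3 and flu light replicates 1 and 3.

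**Figure D4:**
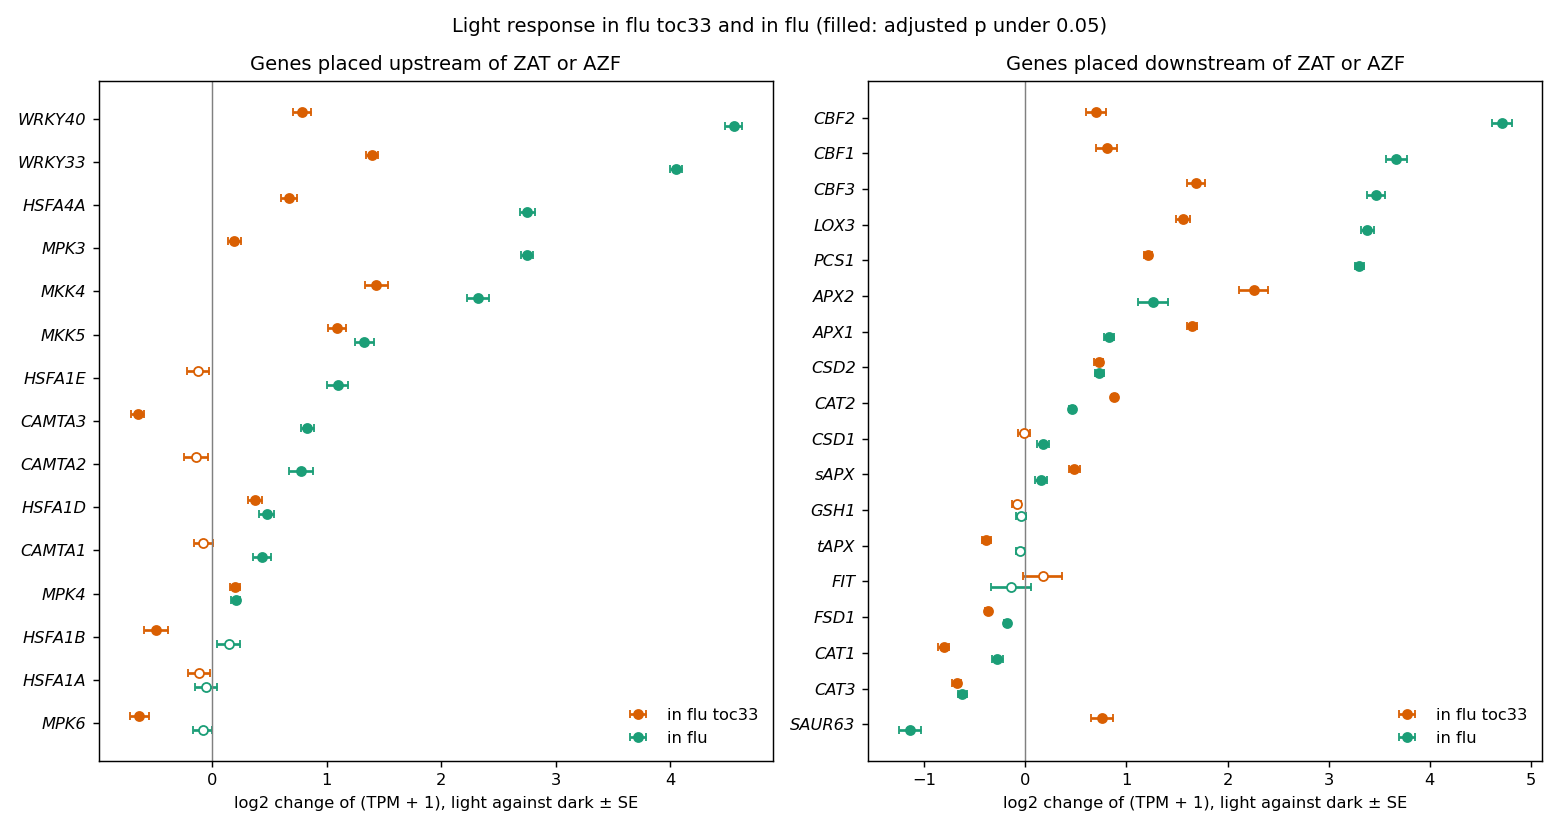
Log2 change of (TPM + 1), light against dark, with its SE from limma (horizontal axes), for the 15 genes placed upstream and the 18 placed downstream of the family, in flu toc33 and in flu, ordered by the response in flu. Filled points passed an adjusted p of 0.05. At the top of both panels flu lies far to the right of flu toc33, while APX1, APX2, sAPX, CAT2 and SAUR63 lie the other way. So does FIT, which was called in neither genotype.

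Genes placed downstream of the family moved in different ways. Of 18 genes, all tested, 11 rose and 4 fell in each genotype, beside 40.4% and 30.6% of all genes tested in flu toc33 and 28.2% and 33.4% in flu. The cold response factor genes CBF1, CBF2 and CBF3 resembled most of the family in the light response, with a larger rise in flu than in flu toc33. The dark level of CBF2 was unlike the family, being clearly higher in the double mutant (log2 difference 0.79 ± 0.0969, limma, adjusted p = 2.14e-05). Among the 10 genes the highest such value was 0.28, for ZAT12. The CBF2 interaction below includes this dark difference, and its difference in the light was -3.22 ± 0.0969. CBF2 stood at 4.62, 4.25 and 4.47 TPM in flu toc33 light and 2.60, 2.63 and 1.88 TPM in flu toc33 dark, against 51.5, 46.3 and 51.6 TPM in flu light and 1.07, 0.785 and 0.956 TPM in flu dark. CBF1 and CBF3 did not pass 0.272 TPM in any dark library and reached 1.03 ± 0.114 and 2.36 ± 0.112 TPM in flu toc33 light, against 14.9 ± 2.02 and 10.9 ± 0.933 TPM in flu light. PCS1, phytochelatin synthase, stood at 50.7 ± 0.855 and 21.3 ± 0.928 TPM in lit and dark flu toc33, against 324 ± 4.53 and 31.9 ± 1.29 TPM in lit and dark flu. LOX3, a lipoxygenase of jasmonate synthesis, stood at 9.75 ± 0.691 and 2.64 ± 0.0921 TPM in lit and dark flu toc33, against 46.7 ± 0.342 and 3.59 ± 0.21 TPM in lit and dark flu. The interactions were -2.86 ± 0.15 for CBF1, -4.01 ± 0.137 for CBF2, -2.09 ± 0.0596 for PCS1 and -1.82 ± 0.092 for LOX3 (limma, adjusted p from 7.12e-12 to 2.17e-09).

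The antioxidant enzyme genes of that list went different ways. CAT1, a catalase, and tAPX, the thylakoid ascorbate peroxidase, fell in flu toc33 light and had interactions of -0.53 ± 0.0763 and -0.33 ± 0.0617 (limma, adjusted p = 4.91e-05 and 4.23e-04). In flu CAT1 also fell, by a log2 of -0.28 ± 0.0539 (limma, adjusted p = 4.98e-04), and tAPX was not called. CAT3, another catalase, fell by a similar log2 in both, at -0.67 ± 0.0443 in flu toc33 and -0.62 ± 0.0443 in flu, and FSD1, the iron superoxide dismutase, fell with -0.37 ± 0.0312 in flu toc33 and -0.18 ± 0.0312 in flu, with an interaction of -0.19 ± 0.0441 (limma, adjusted p = 0.00218). APX1, cytosolic ascorbate peroxidase, stood at 745, 708 and 721 TPM in flu toc33 light and 223, 235 and 233 TPM in flu toc33 dark, against 587, 586 and 597 TPM in flu light and 314, 315 and 370 TPM in flu dark. APX1 was called higher in flu toc33 in the light and lower in the dark, and its interaction was 0.82 ± 0.0735 (limma, adjusted p = 5.19e-07). APX2, its heat-inducible relative, stood at 3.13, 4.27 and 4.02 TPM in flu toc33 light and was listed at 0 in flu toc33 dark, against 1.56, 1.07 and 2.18 TPM in flu light and 0.143, 0 and 0.0684 TPM in flu dark. CAT2, the leaf catalase, rose to 1319.9 ± 5.37 TPM in flu toc33 light, against 716 ± 15 TPM in flu toc33 dark, and to 959 ± 9.52 TPM in flu light, against 694 ± 21.8 TPM in flu dark. The copper-zinc superoxide dismutase CSD2, whose gene is the neighbour of ZAT5, rose by a log2 of 0.73 in both genotypes and was higher in flu toc33 in the dark by 1.14 ± 0.0439 (limma, adjusted p = 3.92e-10). FSD1 and CSD1 were also higher in flu toc33 in the dark, by 0.43 ± 0.0312 for FSD1 and 0.77 ± 0.0598 for CSD1 (limma, adjusted p = 1.47e-07 and 2.93e-07), and PCS1 was lower at -0.56 ± 0.0422 (limma, adjusted p = 2.37e-07). SAUR63, an auxin-induced gene that AZF1 and AZF2 are known to repress, stood at 14.4, 12.7 and 12.4 TPM in flu toc33 light and 9.04, 6.59 and 6.67 TPM in flu toc33 dark, against 7.56, 7.33 and 6.57 TPM in flu light and 17.9, 15.3 and 17.8 TPM in flu dark. It rose in flu toc33 and fell in flu, with an interaction of 1.90 ± 0.151 (limma, adjusted p = 1.56e-07). APX1, SAUR63, CAT1, tAPX and FSD1 were named for the interaction after their values were seen.

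For each gene, the tested gene with the most similar profile was found by Pearson correlation of log2(TPM + 1) over the 12 libraries. Such values are descriptions, since the libraries fall into 4 groups and many genes share the differences between them. For ZAT10 it was NAC032 (r = 0.999), a stress NAC factor, which stood at 52.9 ± 2.69 and 14.1 ± 0.387 TPM in lit and dark flu toc33, against 265 ± 7.44 and 16.4 ± 0.471 TPM in lit and dark flu. The gene nearest to ZAT12 was CAM9 (r = 0.999), a calmodulin-like gene, and that nearest to ZAT6 was RD20 (r = 0.998), a calcium-binding protein of drought responses. AZF1 was nearest to WRKY40 (r = 0.998), ZAT11 to AT1G11050 (r = 0.999) with the CCCH zinc finger gene SZF1 next (r = 0.998), and AZF2 to PTI1-4 (r = 0.999). ZAT7 was nearest to AGP1 (r = 0.997) and ZAT8 to UGT73B3 (r = 0.997), a glucosyltransferase. ZAT5 and AZF3 had looser matches, HA7 for ZAT5 (r = 0.985) and GAF1 for AZF3 (r = 0.973). Within the family the closest pair was ZAT10 and AZF2 (r = 0.994), and ZAT5 had a negative r with each of the 9 others, from -0.43 with ZAT12 to -0.79 with AZF3.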

How the data were processed

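The authors deposited a table of TPM values for 48359 transcripts and 12 libraries, and every column sums to 1000000. The submitters' processing notes list TAIR10, sleuth 0.30.0 and kallisto 0.46.2. For the transcript set and the strand setting, nothing is given in the sources used here. TPM values are shares of a library, so a rise of some genes lowers the rest. Transcripts were summed to 27655 loci, and the 19667 that reached 1 TPM in 3 or more libraries were tested as log2(TPM + 1) by limma 3.58.1 in R 4.3.3: group means of all 12 libraries, moderated two-sided tests with a trend, Benjamini-Hochberg adjustment, threshold 0.05. The model was tested on simulated data. Tables and figures used pandas 2.3.3, matplotlib 3.10.9 and numpy 2.4.6 under Python 3.11.15.

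Names came from the rule and from a RefSeq gene table of assembly TAIR10.1, used only for names and for which genes neighbour each other; ZAT5 and ZAT8 stand there by locus. Named genes were all 10 members, TOC33, up to 4 called genes of each list with the smallest p per comparison and the 2 genes most similar to each member; others were chosen after their values were seen, including some list members given for completeness. Sequences, promoter motifs and protein features were not analysed here. Members and lists were chosen with earlier results of these data known. The settings varied were the pseudocount (0.1 or 5 TPM), the filter (none, or 5 TPM), the scaling (quantile normalization or median ratios), the replicate number as a block, the compared groups alone, the most abundant transcript of each locus and each library left out in turn.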

Additional observations from a re-analysis of the deposited data

Results flagged for a closer look

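The light response differed between the genotypes, by the interaction term of limma with Benjamini-Hochberg adjustment, for 9 of the 10 genes. In log2, flu toc33 minus flu, it differed by 0.45 for ZAT5, -1.97 for ZAT6, -2.46 for ZAT7, -2.38 for ZAT8, -2.45 for ZAT10, -3.95 for ZAT11, -2.59 for ZAT12, -2.04 for AZF1 and -1.64 for AZF2. ZAT5 is the only one of these whose response was higher in flu toc33 than in flu, and every call stood under each alternative run.

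Among the genes placed upstream the same difference was -2.55 for MPK3, -2.08 for HSFA4A, -1.48 for CAMTA3, -2.65 for WRKY33 and -3.77 for WRKY40. Among those placed downstream it was 0.82 for APX1, -0.53 for CAT1, -0.33 for tAPX, -0.19 for FSD1, -2.86 for CBF1, -4.01 for CBF2, 1.90 for SAUR63, -2.09 for PCS1 and -1.82 for LOX3. Among corepressors and relatives it was -0.33 for TPR2, 0.52 for TPR3, 0.46 for HDA6 and 0.61 for AT2G45120. The number of corepressor genes with a called negative difference, 1 of 15 with all libraries (TPR2), ran from 0 to 5 when a library was left out. Of all genes tested, 25.1% were called lower. The count was 3 under quantile normalization and 7 under median-ratio scaling, where 4956 and 6186 of all 19667 genes were called lower.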

How the results depend on the processing

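Of 1040 values of single members under the alternatives, 1021 kept their side of the threshold, 18 lost a call and 1 gained one. No value called in the main or the alternative run changed direction. For values called in neither run, the direction was not checked. The median log2 change of the 10 genes moved with the pseudocount: at 0.1 and 5 TPM it was 1.53 and 0.46 for light in flu toc33, 4.03 and 2.08 for light in flu, -2.68 and -1.87 for flu toc33 against flu in the light, -0.399 and -0.0629 in the dark, and -2.45 and -1.74 for the interaction. Quantile normalization gave 0.76 for light in flu toc33, and median-ratio scaling -2.54 for flu toc33 against flu in the light. In the dark, 0 members were called higher when the compared groups were fitted alone (limma; ZAT12 and ZAT5 at adjusted p = 0.051 and 0.0648), and 1 to 2 when a library was left out. Scaling moved the split of all calls: 45.8% were higher for light in flu and 35.1% under quantile normalization, and 58.3% were higher for flu toc33 against flu in the light and 55.8% for the interaction, against 46.5% and 44.3% under median-ratio scaling. Under quantile normalization 6 of 15 upstream genes fell in flu toc33 light, beside 7177 of all 19667 genes tested. Under median-ratio scaling no upstream gene was higher in flu toc33 than in flu in the light, beside 6018 of all 19667 genes. Of 832 counts over the lists 89 moved by more than 1.5 times, in each case a count of 5 or fewer with all libraries and settings as reported; the cause was not tested. Same-numbered libraries did not deviate together (correlations of -0.169 to 0.125). A shared effect that is small beside the spread of single libraries would not show in these values, so pairing is not excluded. With the replicate block, 7878 genes were called higher and 5983 lower for light in flu toc33, beside 7939 and 6025 without it. In that comparison 9 members were called higher, since AZF3 lost its call (limma, adjusted p = 0.0525). The block changed no other call of a member. Depth is unknown, which limits ZAT7, ZAT11 and AZF1 in the dark most.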
